A study of Sus scrofa with 45 samples.

Results

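STAT2, IRF7 and USP18 are regulators of type I interferon signalling, and their transcripts were followed in the blood of miniature pigs fed hyperlipidemic diets. Probes were taken when the gene name, the RefSeq identifier or the description in the array annotation named one of these genes, and the annotation lists USP18 as ubiquitin-specific protease UBP. This gave 7 of the 43603 probes on the array and 3 of the 2079 genes that the annotation names. STAT2 had 3 probes, IRF7 had 2 and USP18 had 2.

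Male Clawn miniature pigs were 12 weeks old at the start. They received a standard feed (control), a diet with lard and cholesterol (HFCD), or one with lard, cholesterol and sucrose (HFCSD). The design asks how these diets, which raise plasma cholesterol, change transcripts in blood over the feeding period. There were 45 arrays read in 1 colour. The weeks given are weeks on the diet. Whole blood at 10 weeks was represented by 4 control, 4 HFCD and 4 HFCSD arrays, and whole blood at 19 weeks by 4 control, 4 HFCD and 3 HFCSD arrays. Whole blood at 27 weeks had 4 control, 3 HFCD and 3 HFCSD arrays, and white blood cells at 27 weeks had 4 arrays per diet. The labels number the arrays within a group and do not say that a number stands for the same pig at every week. The study's methods name 5 pigs in a diet group, so arrays of a diet at different weeks, or of its 2 sample types, must partly come from the same pigs. The fits below treat them as independent, and the replicate number was tried as a block. Whole blood RNA came from PAXgene tubes and white blood cell RNA from the LeukoLock kit, and the sample types were also scanned on different days, so sample type, kit and scan day cannot be told apart. The number of arrays limits the precision of every value below.

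Type I interferons bind a receptor at the cell surface whose kinases JAK1 and TYK2 phosphorylate STAT2, and STAT2 acts with IRF9 in the factor ISGF3, which switches on interferon-induced genes. IRF7 is one of those genes and is itself the transcription factor that amplifies production of interferon once a virus sensor has activated it. USP18 is another interferon-induced gene: its protein removes ISG15 from other proteins and, held at the receptor by STAT2, blocks further signalling. In blood this programme is well known as a signature of viral infection and of autoimmune disease.

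The probes differ in where they read a transcript and in composition. The STAT2 probes A_72_P088106 and A_72_P119201 share a run of 54 of their 60 bases, so they read nearly the same stretch and are not independent measurements, while the third, A_72_P344153, shares at most 6 bases in a row with either. The IRF7 probes share at most 7 bases in a row, and so do the USP18 probes. The annotation assigns the IRF7 probes to different transcript records. A_72_P077861 is on the RefSeq record of IRF7. A_72_P065236 is on an mRNA clone from ovary, whose description does not name the gene, and it was taken by its gene name. The hexamer AATAAA, the usual polyadenylation signal, stands in 3 of the 7 probes on the strand printed and in 12.1% of the 43603 probes. On either strand it stands in 3 of the 7 and in 16.3% of all. The overlapping STAT2 probes hold the same hexamer, within their shared run, so the 3 are not independent. The last 30 bases of these 3 probes are shown because they hold the hexamer, which is in capitals. Whether these probes lie at transcript ends was not tested.
STAT2 A_72_P088106: aactgagaAATAAAtgtctgtttataaact
STAT2 A_72_P119201: agaAATAAAtgtctgtttataaaccaaaaa
IRF7 A_72_P065236: accctggacccctcccaatccAATAAAaaa

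The other IRF7 probe begins at base 1353 of its transcript record, and 1 USP18 probe begins at base 391 of its record. Both are shown whole because the tests past the threshold rest largely on them, and capitals mark the longest run each shares with the other probe of its gene.
IRF7 A_72_P077861: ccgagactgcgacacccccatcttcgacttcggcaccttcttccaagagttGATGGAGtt
USP18 A_72_P417087: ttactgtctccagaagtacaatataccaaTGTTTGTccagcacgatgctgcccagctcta
GC content was 55.0% for IRF7 A_72_P077861 and 58.3% for IRF7 A_72_P065236, against a median of 40% over all probes, and it lay between 35% and 45% for the STAT2 and USP18 probes.

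Signals are given as log2 values after quantile normalization over the 45 arrays, and levels of different probes are not compared because probes differ in how well they bind. A spot counts as detected when the scanner software marked it as well above background. All probes were detected on 45 of 45 arrays except USP18 A_72_P417087, which was detected on 38.

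**Figure D1:**
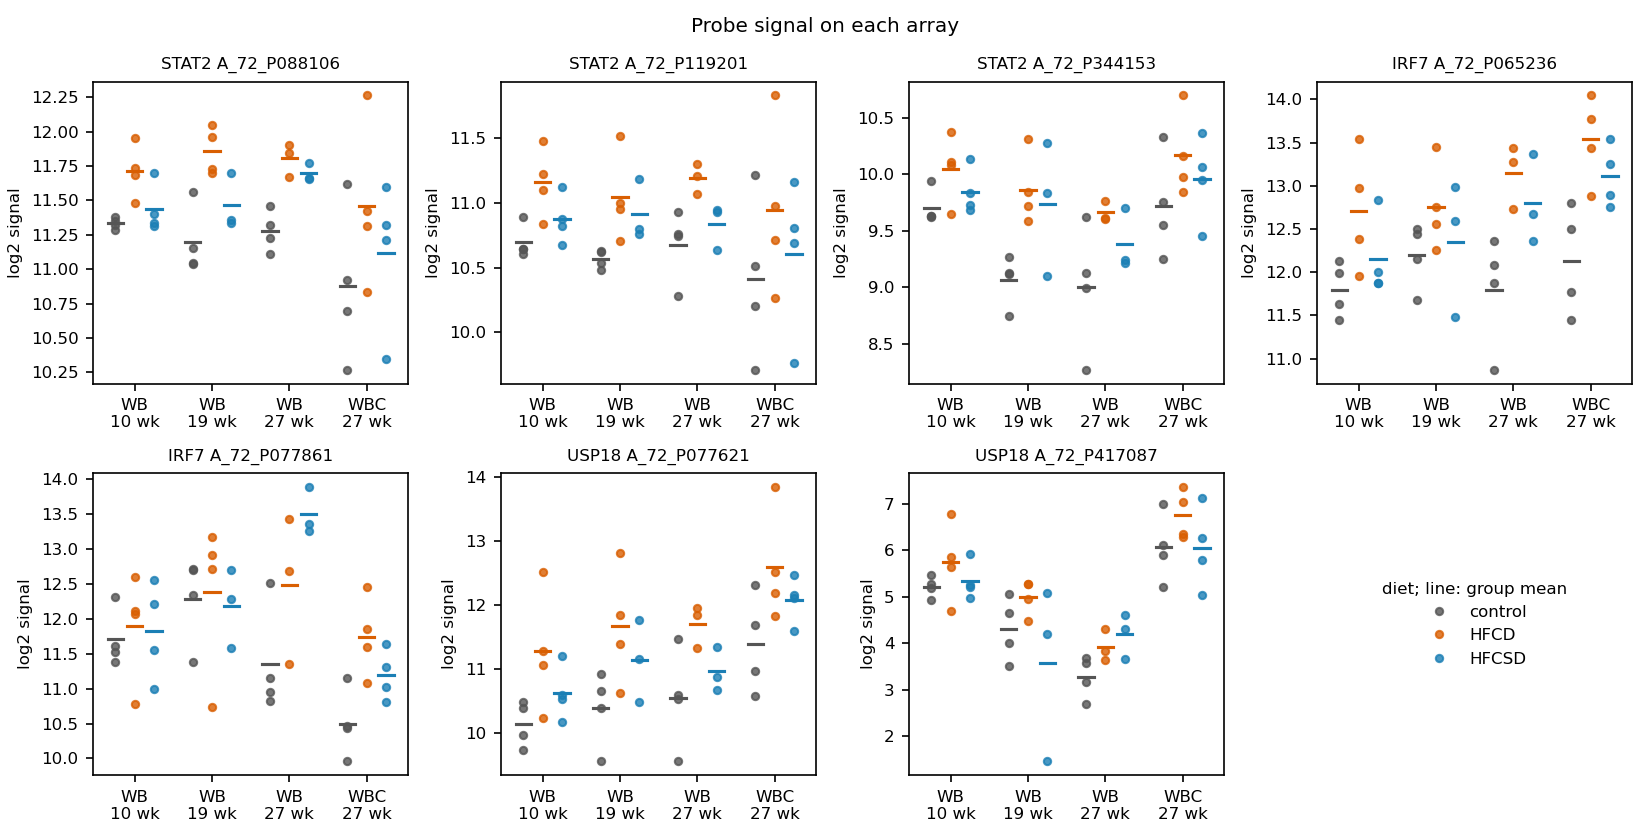
Log2 signal of each of the 7 probes on each array (points) with the group mean (line), by sample type, week and diet; the vertical scale differs between panels. IRF7 A_72_P077861 had its highest group mean, 13.50, under HFCSD in whole blood at 27 weeks, and USP18 A_72_P417087 had its highest, 6.77, under HFCD in white blood cells.

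STAT2, a component of ISGF3, is represented by A_72_P344153 and by the overlapping pair. In whole blood at 10 weeks the STAT2 A_72_P344153 signal was 9.94, 9.62, 9.63 and 9.63 on the control arrays, 10.37, 9.65, 10.11 and 10.08 under HFCD, and 9.68, 10.14, 9.84 and 9.73 under HFCSD. At 19 weeks it was 9.13, 9.12, 9.27 and 8.74 in controls, 9.84, 9.59, 10.31 and 9.72 under HFCD, and 9.84, 10.28 and 9.10 under HFCSD. All 4 HFCD arrays of week 19 lay above all 4 controls, and HFCSD replicate 3 lay among the controls. At 27 weeks the whole blood values were 8.996, 9.62, 9.13 and 8.27 in controls, 9.76, 9.61 and 9.62 under HFCD, and 9.22, 9.70 and 9.24 under HFCSD. The white blood cells read 10.33, 9.56, 9.75 and 9.25 in controls, 9.98, 10.70, 10.16 and 9.84 under HFCD, and 9.45, 10.37, 10.06 and 9.95 under HFCSD. The diet groups overlapped the controls in white blood cells, and control replicate 4 in whole blood at 27 weeks was the lowest of all 45 arrays.

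The overlapping pair of STAT2 probes followed a narrower course. Group means of A_72_P088106 ran from 10.88 (SD 0.56) in control white blood cells to 11.86 (0.17) under HFCD in whole blood at 19 weeks. In whole blood the control means of A_72_P088106 were 11.33 (0.04), 11.20 (0.25) and 11.28 (0.15) at 10, 19 and 27 weeks, and the HFCD means were 11.72 (0.19), 11.86 (0.17) and 11.81 (0.12). At each of these weeks every HFCD array of A_72_P088106 lay above every control array. Under HFCSD the means were 11.44 (0.18), 11.46 (0.21) and 11.70 (0.07), and only at 27 weeks did all HFCSD arrays lie above all controls. Its spread was larger in white blood cells, with means of 10.88 (0.56) in controls, 11.46 (0.60) under HFCD and 11.12 (0.54) under HFCSD, and the groups overlapped. A_72_P119201 read 10.41 (0.63), 10.95 (0.66) and 10.61 (0.60) in those white blood cell groups, and its whole blood means ran from 10.57 (0.07) in controls at 19 weeks to 11.19 (0.12) under HFCD at 27 weeks.

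IRF7, the factor that amplifies interferon production, gave unlike pictures on its 2 probes. On A_72_P065236 the signal in whole blood at 10 weeks was 11.99, 11.63, 11.45 and 12.13 in controls, 13.55, 11.95, 12.98 and 12.38 under HFCD, and 12.004, 12.84, 11.88 and 11.87 under HFCSD. At 19 weeks it was 12.50, 12.15, 12.45 and 11.68 in controls, 12.76, 12.26, 13.45 and 12.56 under HFCD, and 12.59, 12.98 and 11.48 under HFCSD. At both weeks 3 of the 4 HFCD arrays lay above all controls. At 27 weeks A_72_P065236 read 12.36, 12.09, 11.87 and 10.87 in controls, 12.73, 13.44 and 13.27 under HFCD, and 12.68, 13.37 and 12.36 under HFCSD. The white blood cell values were 12.80, 11.45, 12.49 and 11.78 in controls, 12.88, 14.05, 13.78 and 13.44 under HFCD, and 12.90, 12.75, 13.55 and 13.25 under HFCSD. On this probe every HFCD and HFCSD array of whole blood at 27 weeks lay above every control array, and in white blood cells every HFCD array and 3 of the 4 HFCSD arrays did.

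IRF7 A_72_P077861 varied more between arrays of a group. In whole blood at 10 weeks it read 11.53, 12.32, 11.38 and 11.61 in controls, 12.11, 12.61, 12.07 and 10.78 under HFCD, and 12.21, 12.56, 11.55 and 11.002 under HFCSD. At 19 weeks the values were 12.69, 12.71, 12.34 and 11.39 in controls, 10.74, 12.71, 13.18 and 12.92 under HFCD, and 12.28, 11.59 and 12.70 under HFCSD. The diet groups overlapped the controls at both weeks, and HFCD replicate 1 of week 19 was far below the other HFCD arrays. At 27 weeks the probe read 10.95, 10.82, 11.16 and 12.51 in controls, 11.35, 13.43 and 12.68 under HFCD, and 13.89, 13.26 and 13.35 under HFCSD. The white blood cell arrays gave 11.15, 9.96, 10.46 and 10.43 in controls, 11.08, 11.60, 12.46 and 11.85 under HFCD, and 10.82, 11.02, 11.64 and 11.31 under HFCSD. The 3 HFCSD whole blood arrays of week 27 stood above all controls, of which replicate 4 came closest, and in white blood cells HFCSD overlapped the controls.

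USP18, the ISG15 protease that restrains the receptor, had a bright and a dim probe. The bright probe, A_72_P077621, read 10.39, 9.96, 9.74 and 10.48 in controls in whole blood at 10 weeks, 12.52, 10.23, 11.28 and 11.06 under HFCD, and 10.53, 11.20, 10.59 and 10.17 under HFCSD. At 19 weeks it read 10.92, 10.39, 10.66 and 9.57 in controls, 12.81, 10.62, 11.84 and 11.39 under HFCD, and 11.15, 11.77 and 10.48 under HFCSD. At each of these weeks 1 HFCD array, replicate 1, was more than 2-fold above every control, and replicate 2 lay among the controls. At 27 weeks USP18 A_72_P077621 read 11.47, 10.60, 10.54 and 9.56 in controls, 11.32, 11.84 and 11.95 under HFCD, and 10.67, 11.34 and 10.88 under HFCSD. White blood cells gave 12.31, 10.96, 11.69 and 10.57 in controls, 11.82, 13.84, 12.52 and 12.19 under HFCD, and 11.59, 12.47, 12.15 and 12.11 under HFCSD. Diet and control arrays overlapped in all 4 of these settings for both diets.

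USP18 A_72_P417087 was close to background in later whole blood. It read 5.46, 4.92, 5.19 and 5.28 in controls in whole blood at 10 weeks, 6.77, 4.69, 5.85 and 5.65 under HFCD, and 5.26, 5.92, 5.21 and 4.97 under HFCSD. At 19 weeks it read 5.07, 4.66, 4.00 and 3.52 in controls, 4.95, 5.28, 5.27 and 4.48 under HFCD, and 4.21, 5.07 and 1.46 under HFCSD. HFCSD replicate 3 and HFCD replicate 4 of week 19 were not detected, and the former was the lowest of all arrays. At 27 weeks A_72_P417087 read 3.68, 3.57, 2.68 and 3.16 in controls, 3.82, 4.31 and 3.65 under HFCD, and 3.66, 4.30 and 4.62 under HFCSD, with 2, 2 and 1 arrays detected. In white blood cells it was detected on every array, at 7.01, 5.91, 6.12 and 5.22 in controls, 6.36, 7.37, 7.05 and 6.28 under HFCD, and 5.03, 7.13, 6.27 and 5.79 under HFCSD. The white blood cell arrays were all above the whole blood arrays of the same week on this probe.

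The order of the 12 groups was drawn from their means, and neighbours were taken to differ beyond their spread when their difference exceeded the larger of their SDs. White blood cells under HFCD ranked first for STAT2 A_72_P344153 (10.17), IRF7 A_72_P065236 (13.54), USP18 A_72_P077621 (12.59) and USP18 A_72_P417087 (6.77). Of the 11 neighbouring pairs, at most 2 differed beyond their spread for any probe. For STAT2 A_72_P344153 1 pair was HFCD over HFCSD in whole blood at 27 weeks, nearly a tie (difference 0.276, larger SD 0.274). The other was that HFCSD group over control at 19 weeks (0.32; larger SD 0.27), and control at 27 weeks ranked last. For STAT2 A_72_P088106 the pair was HFCSD at 27 over HFCSD at 19 weeks (0.23), and STAT2 A_72_P119201 had none. For IRF7 A_72_P065236 no neighbours differed beyond their spread from first to last, although the first and last means lay 1.74 apart. For IRF7 A_72_P077861 the order began with whole blood at 27 weeks under HFCSD and HFCD and ended with white blood cells under HFCSD and control, the only pair that differed beyond its spread (0.70). For USP18 A_72_P077621 the white blood cell groups under HFCD and HFCSD ranked highest, and whole blood of controls at 27, 19 and 10 weeks filled the last places. HFCSD white blood cells exceeded HFCD whole blood at 27 weeks by only slightly more than the spread (0.377, larger SD 0.364). For USP18 A_72_P417087 the 3 white blood cell groups came first and the 3 whole blood groups of week 10 next. HFCD over control at 19 weeks was the pair counted as beyond its spread, in effect a tie (difference 0.68804, larger SD 0.688027). The probe was detected on 3 of these 4 HFCD arrays.

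Each diet was then compared with control within a sample type and week using limma, with p-values adjusted over all probes tested and a threshold of 0.05. Both diets were set against the same control arrays, so their changes share the chance values of those controls. The overlapping STAT2 probes are counted separately in the counts of members, though they are not independent. Testing required detection throughout 1 or both of the groups being compared, which admitted all 7 probes except USP18 A_72_P417087 in whole blood at 27 weeks. Bulk RNA cannot tell fewer cells of a type from less RNA per cell.

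**Figure D2:**
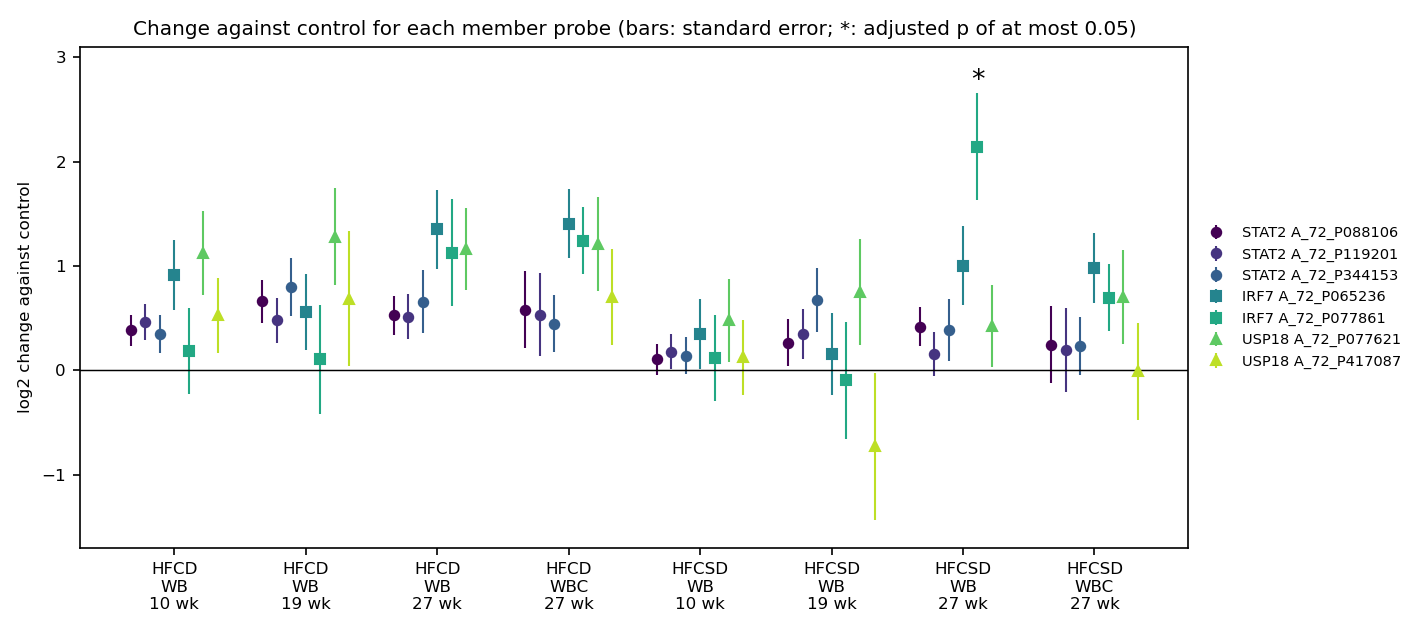
Log2 change against control (points) with its standard error (bars) for each tested probe in the 8 comparisons of a diet with control; an asterisk marks an adjusted p of at most 0.05. The HFCD points lie above 0 in all 4 settings, and the only asterisk is on IRF7 A_72_P077861 under HFCSD in whole blood at 27 weeks, at 2.14.

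HFCD gave higher means than control for every tested member probe in all 4 settings, by limma under each of the scalings tried, and none passed adjustment. In whole blood at 10 weeks the log2 changes ran from 0.18 for IRF7 A_72_P077861 to 1.13 for USP18 A_72_P077621, and 0 of 7 probes were called, beside 0.0281% of all probes. Without HFCD replicate 2 the IRF7 A_72_P077861 value was -0.06, and without HFCD replicate 1 that of USP18 A_72_P077621 was 0.71 and that of USP18 A_72_P417087 0.18 in place of 0.53. At an unadjusted p of at most 0.05, 4 of the 7 passed (10% of all probes), and 1 had no overlap between the groups (5.39%). At 19 weeks the changes ran from 0.10 for IRF7 A_72_P077861 to 1.28 for USP18 A_72_P077621, with 0 of 7 called (0.0181%), 3 past the unadjusted threshold (12.5%) and 3 without overlap (7.47%). The IRF7 A_72_P077861 value turned negative without control replicate 4 (-0.19) or without HFCD replicate 2, 3 or 4, and was 0.65 without HFCD replicate 1. With each array's percentage of detected spots as a covariate it was -0.63. The 3 without overlap were the STAT2 probes, at 0.66 for A_72_P088106, 0.48 for A_72_P119201 and 0.80 for A_72_P344153. At 27 weeks they ran from 0.51 for STAT2 A_72_P119201 to 1.35 for IRF7 A_72_P065236 in whole blood, with 0 of 6 called (0.0165%), 4 past the unadjusted threshold (5.54%) and 3 without overlap (6.21%). Control replicate 4 was the lowest control there on the STAT2 probes, IRF7 A_72_P065236 (10.87) and USP18 A_72_P077621 (9.56). On STAT2 A_72_P344153 it read 8.27, and on STAT2 A_72_P119201 10.28. The sizes on these probes thus rest partly on that array, as under HFCSD. On IRF7 A_72_P077861 it was the highest control (12.51). In white blood cells the changes ran from 0.45 for STAT2 A_72_P344153 to 1.41 for IRF7 A_72_P065236, with 0 of 7 called (0.0276%), 3 past the unadjusted threshold (4.72%) and 1 without overlap (2.89%). There, without HFCD replicate 2, STAT2 A_72_P344153 was 0.27, STAT2 A_72_P088106 0.31 and STAT2 A_72_P119201 0.24, and USP18 A_72_P077621 was 0.79 in place of 1.21. By the rule of the study's methods, an unadjusted p with at least a 2-fold change, 0, 0, 1 and 2 member probes passed in these 4 settings, and 1.73%, 3.3%, 1.53% and 0.651% of all probes. The lowest adjusted p of a member under HFCD was 0.24, for STAT2 A_72_P088106 at 19 weeks.

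HFCSD against control gave smaller values at most times. In whole blood at 10 weeks all 7 probes were higher than control, by 0.10 to 0.48, with 0 called (0.0123%), 0 past the unadjusted threshold (1.73%) and 0 without overlap (0.975%). Without HFCSD replicate 2 the values of IRF7 A_72_P077861 and USP18 A_72_P417087 were -0.12 and -0.07 and that of USP18 A_72_P077621 was 0.29, and the first was also negative without HFCSD replicate 1. HFCSD replicate 2 was the highest HFCSD array on all 7 probes, so the sizes for STAT2 and IRF7 A_72_P065236 rest largely on it as well. At 19 weeks 5 of 7 were higher, from -0.73 for USP18 A_72_P417087 to 0.75 for USP18 A_72_P077621, with 0 called (0.0175%), 1 past the unadjusted threshold (11.9%) and 1 without overlap (18.3%). The value of IRF7 A_72_P065236 in that comparison, 0.16, was just below 0 when arrays were scaled by their 75th percentile, so the count higher was then 4. It was also negative without control replicate 4 or HFCSD replicate 2 (-0.16), and IRF7 A_72_P077861 turned positive without control replicate 1 or 2 or HFCSD replicate 2 (0.21). The 0.75 of USP18 A_72_P077621 was 0.43 without HFCSD replicate 2. The USP18 A_72_P417087 value of -0.73 rested on HFCSD replicate 3, and without that array it was 0.33. That array was not detected, so the size of -0.73 is set partly by a value at background. The probe was tested only through the controls, where it was higher, so the filter favoured this direction. In white blood cells 6 of 7 were higher, from -0.01 for USP18 A_72_P417087 to 0.98 for IRF7 A_72_P065236, with 0 called (0.0366%), 1 past the unadjusted threshold (11.4%) and 0 without overlap (6.2%). STAT2 A_72_P119201 there was -0.04 without control replicate 4, and USP18 A_72_P417087 turned positive without control replicate 1 or 3 or HFCSD replicate 1 (0.33) or 4. By the rule of the study's methods 0 member probes passed in each of these 3 comparisons, beside 0.136%, 5.15% and 1.72% of all probes.

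In whole blood at 27 weeks IRF7 A_72_P077861 rose under HFCSD by 2.14 (SE 0.51; adjusted p = 0.031), a fold of 4.42, with 3 of 3 HFCSD arrays above all controls. It was 1 of 6 member probes called, beside 10.6% of all probes tested, and the median over all probes was -0.21. All 6 members tested were higher than control, 3 passed the unadjusted threshold (32.3%) and 3 had no overlap (27.6%), so the members' calls were near the background of this comparison. The other IRF7 probe, A_72_P065236, gave 1.00 (SE 0.38; adjusted p = 0.101), also with 3 of 3 arrays above all controls. STAT2 A_72_P088106 gave 0.42 (adjusted p = 0.145) without overlap, STAT2 A_72_P344153 gave 0.38, STAT2 A_72_P119201 0.16 and USP18 A_72_P077621 0.42. Without control replicate 4 these last 3 were 0.14, 0.02 and 0.09, so their size rests mostly on that array, and IRF7 A_72_P065236 was 0.70. By the rule of the study's methods 1 member probe passed, beside 12.4% of all probes. The call was lost without control replicate 1, 2 or 3 or HFCSD replicate 1 or 2, with adjusted p-values of up to 0.11. At an unchanged 2.14 it was also lost with no filter on dim probes (adjusted p = 0.0798) and by the t-test (adjusted p = 0.0874). Over all omissions the change ran from 1.95 to 2.53, the latter without control replicate 4, which kept the call.

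The share of spots well above background differed between these groups as well. It was 38.8% to 39.7% on the HFCSD arrays and 38.9% to 50.2% on the control arrays, and the lowest control array, replicate 4, was the control with the highest IRF7 A_72_P077861 signal. Over the 45 arrays, deviations of IRF7 A_72_P077861 from its group means correlated with the deviations of that share at r = -0.72, a value lower than that of all but 0.132% of the 12095 probes detected on every array. For the other 6 member probes r lay between 0.10 and 0.31. With the share as a covariate, the HFCSD change of IRF7 A_72_P077861 at 27 weeks was 0.88 (adjusted p = 0.317) and limma called 0 of all probes, against 1824 without it, with 2839 past the unadjusted threshold. Whether the diet or the quality of the arrays underlies this rise was not tested, and the share itself differs with the diet.

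**Figure D3:**
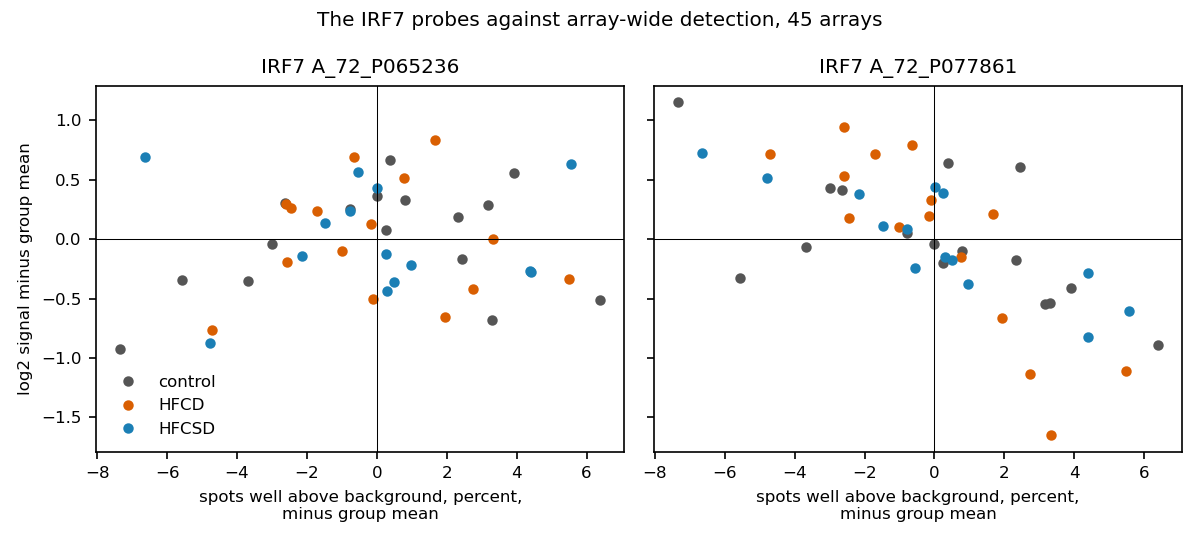
Deviation of the log2 signal from the group mean against the deviation of the percentage of spots well above background, for each IRF7 probe on the 45 arrays (points, coloured by diet). A_72_P077861 falls along the axis (r = -0.72) and A_72_P065236 does not (r = 0.10).

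The 19-week comparisons also differed in scan day, since control replicates 2, 3 and 4 were scanned on 1 day and control replicate 1 and all diet arrays on another. On the shared day, with 1 control array, HFCD minus control was 0.73 for STAT2 A_72_P344153, 0.56 for STAT2 A_72_P119201, 0.30 for STAT2 A_72_P088106, 0.75 for USP18 A_72_P077621 and 0.25 for IRF7 A_72_P065236. It was -0.31 for IRF7 A_72_P077861 and -0.07 for USP18 A_72_P417087. HFCSD minus control was 0.61 for STAT2 A_72_P344153, 0.43 for STAT2 A_72_P119201, -0.09 for STAT2 A_72_P088106, 0.21 for USP18 A_72_P077621, -1.49 for USP18 A_72_P417087, -0.15 for IRF7 A_72_P065236 and -0.51 for IRF7 A_72_P077861. The -1.49 rests mostly on HFCSD replicate 3, which was not detected (1.46). The other HFCSD arrays read 4.21 and 5.07, and this control array 5.07. The signs on the shared day differed from those over all arrays for 2 of the 7 probes under each diet.

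Slides that held arrays of a diet and of control give further differences, each from 1 or 2 arrays a side. For IRF7 A_72_P077861 under HFCSD in whole blood at 27 weeks they were 2.46 and 2.45, each against 1 control array, and control replicates 1 and 4 were on another slide. At 10 weeks this probe gave -0.71 on 1 of 3 slides under HFCD, and -0.77 and -0.49 on 2 of 3 under HFCSD, against the positive values over all arrays. On 1 slide each at 10 weeks under HFCSD, STAT2 A_72_P344153 gave -0.03 and USP18 A_72_P417087 -0.27. The only such slide of week 19 held 1 HFCD and 1 control array, and gave -0.30 for USP18 A_72_P077621 and -0.25 for IRF7 A_72_P065236. At 27 weeks STAT2 A_72_P119201 was just below 0 on 1 slide under HFCSD in whole blood and -0.02 on 1 under HFCD in white blood cells. There, under HFCSD, STAT2 A_72_P344153 gave -0.05 on 1 slide and USP18 A_72_P417087 0.36 and 1.02 on 2. All other slide values of the members kept the sign of the value over all arrays.

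HFCSD was set against HFCD to read the difference that accompanies added sucrose. Member means were lower under HFCSD for 7 of 7 probes in whole blood at 10 weeks, 6 of 6 at 19 weeks, 5 of 6 at 27 weeks and 7 of 7 in white blood cells. By limma 0 were called in each, beside 0%, 0%, 0.0111% and 0% of all probes, and 0 passed the unadjusted threshold, beside 4.95%, 1.56%, 12.6% and 2.17%. Probes without overlap numbered 0, 0, 1 and 0, beside 2.63%, 3.11%, 16.7% and 1.38%. The largest difference was 1.01 for IRF7 A_72_P077861 in whole blood at 27 weeks (adjusted p = 0.424), the only positive one. Its size and its rank rest on HFCD replicate 1, which read 11.35 beside 13.43 and 12.68 on the other HFCD arrays. STAT2 A_72_P119201 in that comparison was the 1 probe without overlap, at -0.36. With the share of detected spots as a covariate, an alternative added after the data were seen, IRF7 A_72_P077861 there was -0.23, and STAT2 A_72_P344153 (0.27) and IRF7 A_72_P065236 (0.20) were positive. IRF7 A_72_P077861 at 19 weeks was then 0.23. At 19 weeks the signs of STAT2 A_72_P119201 (0.03 without HFCD replicate 1), STAT2 A_72_P344153 (0.19 without HFCSD replicate 3; also without HFCD replicate 3), IRF7 A_72_P065236 (0.03 without HFCSD replicate 3) and IRF7 A_72_P077861 (0.10 without HFCSD replicate 2; also without HFCD replicate 3) turned. At 10 weeks that of IRF7 A_72_P077861 turned without HFCD replicate 1 or 2 or HFCSD replicate 3 or 4 (0.21).

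The weeks were compared within each diet in whole blood. From 10 to 19 weeks 0 of 7 probes were called in controls (12% of all probes) and 0 in HFCD (6.98%), with 1 and 0 past the unadjusted threshold (25.4% and 27.4%) and 1 and 0 without overlap (16.4% and 16.4%). In HFCSD 1 of 7 was called (7.16%), 1 passed the unadjusted threshold (24.7%) and 0 had no overlap (27.9%). That probe was USP18 A_72_P417087, with a difference of -1.76 and 2 of 3 later arrays below all earlier ones. It was tested only because it was detected on all arrays of week 10, where it was higher, so the filter favoured this direction, and the size is set partly by a value at background. Without HFCSD replicate 3 of week 19, which was not detected, the value was -0.70 with an adjusted p of 0.521. Leaving out any 1 HFCSD array of week 10 also ended the call, and so did the replicate number as a block (-1.88; adjusted p = 0.0516). With the normexp background correction the value was -0.42 and not called (adjusted p = 0.127). In controls, the share of detected spots as a covariate (also added afterwards) brought STAT2 A_72_P344153 (-0.75; adjusted p = 0.0338) and IRF7 A_72_P077861 (1.07; adjusted p = 0.0453) past the threshold, and the block did so for the former (-0.64; adjusted p = 0.0457).

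From 10 to 27 weeks, 2 of 7 probes were called in controls (20.7%), 1 of 7 in HFCD (5.59%) and 1 of 7 in HFCSD (10.4%). The unadjusted threshold was passed by 2, 1 and 2 members (35.5%, 20.5% and 26.8%), and 2, 1 and 2 had no overlap (22.8%, 22% and 30.3%), so members stood near the background. For USP18 A_72_P417087 the differences were -1.94 in controls, -1.81 in HFCD and -1.15 in HFCSD, with 4 of 4, 3 of 3 and 3 of 3 later arrays below all earlier ones. The first 2 passed the threshold, but the probe was tested only through week 10. At week 27 it was detected on 2 of 4, 2 of 3 and 1 of 3 arrays, so these sizes are set partly by values at background and the direction was favoured by the filter. Without HFCD replicate 1, 3 or 4 of week 10, or any 1 HFCD array of week 27, the HFCD call was lost, and over all omissions the value ran from -2.16 to -1.47. It was also lost with the replicate number as a block (-1.91; adjusted p = 0.0557) and with the share of detected spots as a covariate (-1.76; adjusted p = 0.0511). STAT2 A_72_P344153 fell by 0.70 in controls (SE 0.24; adjusted p = 0.0396), with 4 of 4 arrays below. Leaving out any 1 array except control replicate 2 of week 27 ended this call, and over all omissions the value ran from -0.91 to -0.46. With scaling by the 75th percentile it was -0.55 and not called. Against the 10-week values, IRF7 A_72_P077861 rose by 1.67 in HFCSD (SE 0.55; adjusted p = 0.0487), with 3 of 3 arrays above. Of the omissions of 1 array, only that of HFCSD replicate 2 of week 10 kept this call, and over all of them the value ran from 1.40 to 1.92. With the replicate number as a block, which pairs arrays, it was 1.40 and not called (adjusted p = 0.132). The median share of spots well above background in HFCSD was 44.8% at week 10 and 39.6% at week 27, and with that share as a covariate (also added afterwards) the value was 1.09 and not called (adjusted p = 0.0928). The weeks were scanned on different days, so week and scan day cannot be told apart.

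The difference between the 27-week and the 10-week diet effect was tested directly. By limma 0 of 7 members were called for HFCD and 0 for HFCSD (0% and 0% of all probes), with 0 and 1 past the unadjusted threshold (2.72% and 14.9%). The largest member value was that of IRF7 A_72_P077861 under HFCSD, 2.02 (SE 0.75; adjusted p = 0.288). For HFCD it was again this probe, at 0.95 (adjusted p = 0.955), so a change of the diet effect over time was not detected for any member.

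White blood cells were set against whole blood at 27 weeks within each diet. For USP18 A_72_P417087 the differences were 2.79 in controls, 2.84 in HFCD and 1.86 in HFCSD, all past the threshold, with every white blood cell array above every whole blood array. The probe was tested only through the white blood cells, where it was higher. In whole blood it was detected on 2 of 4, 2 of 3 and 1 of 3 arrays, so the sizes are set partly by values at background and the direction was favoured by the filter. The members called were 2 of 7 in controls, 1 of 7 in HFCD and 3 of 7 in HFCSD, beside 45.3%, 47.5% and 58.9% of all probes, so the members were called no more often than other probes. With scaling by the 75th percentile 3, 3 and 4 members were called, and with the share of detected spots as a covariate (also added afterwards) 1, 2 and 0. The unadjusted threshold was passed by 2, 1 and 3 of the 7 (52.3%, 54.7% and 63.5%), and 1, 2 and 4 had no overlap (39%, 51.1% and 59.7%). USP18 A_72_P077621 rose in HFCSD by 1.12 (adjusted p = 0.0463; 4 of 4 arrays above) and had values of 0.84 in controls and 0.89 in HFCD, of which the former passed at 1.15 without control replicate 1 of whole blood. With the replicate number within a diet as a block both passed, at 0.84 (adjusted p = 0.0262) and 1.02 (adjusted p = 0.0214). Without HFCSD replicate 1 or 3 of whole blood, or replicate 2, 3 or 4 of white blood cells, the HFCSD call was lost, and over all omissions the value ran from 0.97 to 1.31. STAT2 A_72_P344153 rose in controls by 0.72 (adjusted p = 0.0445; 2 of 4 arrays above), a call kept only without control replicate 2 of whole blood or replicate 4 of white blood cells. Over all omissions its value ran from 0.47 to 0.92. This call was also lost with the normexp background correction (0.60; adjusted p = 0.0568) and with the covariate (0.62; adjusted p = 0.0592). The overlapping STAT2 probes were lower in white blood cells in all 3 diets, by values between -0.57 and -0.23, and none was called. With scaling by the 75th percentile the sign turned in 4 of these 6 values, and the median over all probes moved from 0.17 to 0.30 in controls and from 0.19 to 0.38 in HFCD. Without replicate 1 of the HFCSD white blood cells, STAT2 A_72_P119201 was also positive there (0.05).

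The 2 IRF7 probes had values of opposite sign in that comparison. A_72_P065236 was higher in white blood cells in all 3 diets and was not called. In controls, HFCD and HFCSD its values were 0.33, 0.39 and 0.31, beside 0.17, 0.19 and 0.42 for the median over all probes. Its control value rests mostly on whole blood control replicate 4, which read 10.87 beside 12.36, 12.09 and 11.87 on the other controls. The HFCD value rests partly on whole blood HFCD replicate 1, at 12.73 beside 13.44 and 13.27. A_72_P077861 was lower in all 3, and in HFCSD it fell by 2.31 (SE 0.45; adjusted p = 0.00031) with 4 of 4 arrays below all whole blood arrays, a call that each scaling and each omission of an array kept. The share of spots well above background, with which deviations of this probe correlate at r = -0.72, was 38.8% to 39.7% on these whole blood arrays and 46.1% to 48.6% on these white blood cell arrays. With the share as a covariate the value was -0.92 and not called (adjusted p = 0.113), and 6177 of all probes were called. As the share did not overlap between these 2 groups, its part in the difference cannot be told apart from that of the sample type. The values of A_72_P077861 in controls and HFCD were -0.86 (adjusted p = 0.103) and -0.74 (adjusted p = 0.184). The latter passed the threshold at -1.31 without HFCD replicate 1 of whole blood and at -0.92 with the covariate (adjusted p = 0.0226). The former rests partly on whole blood control replicate 4, which read 12.51 beside 10.95, 10.82 and 11.16 on the other controls.

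The diet effect in white blood cells minus that in whole blood was tested as well. By limma 0 of 7 members were called for HFCD (0% of all probes) and 0 of 7 for HFCSD (1.38%), with 0 and 1 past the unadjusted threshold (1.34% and 19.3%). Under HFCD the differences were between -0.21 and 0.12. Under HFCSD they ran from -1.45 for IRF7 A_72_P077861 (SE 0.62; adjusted p = 0.212) to 0.28 for USP18 A_72_P077621, so for no member was a different diet effect in the sample types detected.

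How far the members vary together was described over the 45 arrays, with no test, since arrays of a group share diet, week and scan. The overlapping STAT2 probes correlated at r = 0.90 (Spearman's rho 0.85), and r with A_72_P344153 was 0.45 and 0.60. IRF7 A_72_P065236 and USP18 A_72_P077621 correlated at r = 0.87 (rho 0.88) and, as deviations from their group means, at 0.82. The 2 IRF7 probes correlated at r = 0.21 (rho 0.21) and, as deviations, at 0.14. IRF7 A_72_P077861 thus varied with neither the other IRF7 probe nor USP18, with which r was -0.11 and -0.28. The 2 USP18 probes correlated at r = 0.59 (rho 0.52) and STAT2 A_72_P344153 with USP18 A_72_P417087 at 0.75 (rho 0.75).

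Named genes most like each member were sought by Pearson's r of the brightest member probe over the 45 arrays, among 1257 genes. For STAT2 the levels most alike included those of TPT1 (0.65), LGALS9 (0.62), TBK1 (0.60) and SLA-1 (0.60). As deviations they included RGS1 (0.76), LOC733579 (0.75), ID2 (0.71) and the RNA sensor IFIH1 (0.70). The genes nearest to IRF7 included the interferon-induced exonuclease ISG20 (0.89), USP18 (0.87), the antiviral GTPase MX1 (0.84) and IFIH1 (0.84), and in deviations ISG20 (0.84), USP18 (0.82), IFITM1 (0.82) and IFIH1 (0.80). USP18 was nearest to LOC733579 (0.92), the Fc receptor FCGR1A (0.91), ISG20 (0.91), IFIH1 (0.91) and MX1 (0.90), and in deviations to ISG20 (0.89), the kinase EIF2AK2 (0.89), LOC733579 (0.88), IFIH1 (0.86) and MX1 (0.85). In levels USP18 had rank 3 among the 1257 genes for IRF7, and IRF7 had rank 9 for USP18. For STAT2 the ranks of IRF7 and USP18 were 44 and 84 in levels, and 88 and 8 in deviations.

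The rest of the pathway was read from lists of its genes, by counts and medians beside all probes. Interferon-induced effectors, with 15 of 31 genes named in the annotation, had median changes under HFCD of 1.30, 1.39 and 1.38 in whole blood at 10, 19 and 27 weeks and 1.19 in white blood cells. The medians over all probes were 0.09, -0.04, -0.03 and 0.02. Probes of list genes that the annotation does not name are not in these medians. Under HFCSD the effector medians were 0.40, 0.91, 0.69 and 0.55, against 0.04 or less over all probes. The member values thus lay on the same side of the all-probe median as the effectors, in both diets, apart from IRF7 A_72_P077861 and USP18 A_72_P417087 under HFCSD at 19 weeks and the latter in white blood cells. The largest effector values under HFCD at 19 weeks were those of the chemokine CXCL10, 4.09 (adjusted p = 0.116), the antiviral enzyme RSAD2, 2.68, and LGALS9, 2.44. None of the 25 or 26 effector probes tested passed under HFCD.

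Effector calls came under HFCSD in whole blood at 27 weeks, where 3 of 24 probes rose and 0 fell, beside the 10.6% of all probes called. They were ISG20, 1.58 (adjusted p = 0.0471), and LGALS9 on probe A_72_P179706, 2.03 (adjusted p = 0.0313), and on A_72_P077551, 1.92 (adjusted p = 0.036). Among the interferon regulatory factors 1 of 5 probes rose there, IRF9 by 1.23 (adjusted p = 0.0372), the DNA-binding part of ISGF3. Upstream of IRF7 the adaptor MAVS rose by 2.58 (adjusted p = 0.0492; 1 of 9 probes), and among the inhibitors SOCS2 rose by 1.14 (adjusted p = 0.022; 1 of 1). When each array's share of detected spots entered the fit, limma called 0 of all probes there, so all these calls were lost. The part of array quality in these rises was not tested. In the other 7 comparisons of a diet with control, 0 probes of these lists were called by limma.

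The medians of those smaller lists varied by list and week. For kinases and STATs they were 0.29, 0.42 and 0.24 under HFCD in whole blood at 10, 19 and 27 weeks and 0.06 in white blood cells. Under HFCSD they were 0.25, 0.46, 0.12 and -0.09. For interferon regulatory factors other than IRF7 they were 0.25, 0.09, 0.43 and -0.02 under HFCD, and 0.12, -0.07, 0.71 and -0.25 under HFCSD. For adaptors and kinases upstream of IRF7 they were 0.05, 0.28, 0.23 and 0.13, and 0.03, -0.15, -0.04 and -0.06. For interferons and receptors, 3 probes of IFNAR1 and IFNGR2 were tested, with medians of 0.10, -0.30, -0.29 and -0.08 under HFCD and -0.20, -0.30, -0.23 and -0.32 under HFCSD, so the receptor medians shared the sign of most members only under HFCD at 10 weeks. For the inhibitors SOCS2 and PTPN1, which had no probe tested at 19 weeks, they were 0.48, 0.35 and 0.02 under HFCD at 10 weeks, 27 weeks and in white blood cells, and 0.58, 1.14 and -0.18 under HFCSD. Of the ISG15 system only USP18 was named in the annotation.

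Cell type markers were read beside the members because whole blood holds many cell types. The platelet list, 4 probes of ITGA2B, ITGB3 and PPBP, had medians below control under HFCD, at -1.04, -1.56 and -1.26 in whole blood and -1.12 in white blood cells, and under HFCSD at -0.05, -0.43, -1.18 and -0.44, with none called. The mean of the list varied widely between arrays of some groups, with an SD of 2.71 in control white blood cells (lowest array 7.89, group mean 11.96), 2.64 under HFCD there (7.01 and 10.83), 1.53 under HFCSD there (9.84 and 11.49), and in whole blood 1.83 at 19 weeks for HFCD (7.77 and 9.54) and 1.65 at 27 weeks for HFCSD (8.41 and 10.28). In these groups the medians may rest on single low arrays, which was not tested. Its brightest gene, ITGA2B, had means of 12.52, 12.04 and 12.15 in control whole blood and 12.86 in control white blood cells. Deviations of the platelet list correlated with those of STAT2 A_72_P088106 and A_72_P119201 at r = -0.67 and -0.68, and with the other members between -0.46 and 0.06. Its part in the STAT2 values was not tested. The T cell list (10 of 11 probes tested at 10 weeks; brightest gene CD3D) had medians of 0.12, 0.65, -0.02 and 0.22 under HFCD and -0.03, 0.65, 0.00 and 0.22 under HFCSD. Deviations of the T cell list correlated with those of IRF7 A_72_P077861 at r = -0.56 and with the other members between 0.20 and 0.48.

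The remaining markers moved less regularly. Neutrophil markers (3 probes, brightest gene FCGR3A) had medians of 0.06, -0.08, 0.39 and 0.70 under HFCD and 0.01, 0.05, -0.30 and 0.17 under HFCSD, and correlated with IRF7 A_72_P065236 at r = 0.50. Monocyte markers (brightest gene LYZ) had medians of 0.38, -0.48, 0.46 and 0.10 under HFCD and 0.17, -0.19, 0.03 and -0.19 under HFCSD, with r of at most 0.38 for any member. The only probe for plasmacytoid dendritic cells, the main producers of interferon in blood, was that of IRF8, which was too dim to be tested in any comparison. No probe was named for the erythroid markers. None of these marker probes was called in a comparison of a diet with control, and their part in the members' values was not tested.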

How the data were processed

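Blood RNA from control, HFCD and HFCSD pigs was measured on 45 one-colour Agilent porcine arrays. Per the file headers, the deposited intensity values of each scan were made by Agilent Feature Extraction 10.5.1.1 (9.5.3.1 per the labels), with background subtracted and spatial trends removed but no scaling between arrays. The authors deposited a further table of intensity values, quantile normalized over the arrays. Here the log2 processed signals were quantile normalized over the 45 arrays without control spots (R 4.3.3, limma 3.58.1 and version 1.17.8 of data.table), outlier spots were left out and spots of a probe averaged. Between 35.4% and 53.3% of an array's spots were well above background, which limits dim probes. Probes needed 2 usable arrays per group. Tests were moderated t-tests by limma with Benjamini-Hochberg adjustment over all probes tested at 0.05, over 25 comparisons, tested on simulated data. A t-test with a 2-fold change followed the study's methods. Alternatives changed the scaling, background correction (normexp, offset 50), source of the values, filter, arrays fitted, blocks, a covariate and each array. Tables and figures used Python 3.11.15, pandas 2.3.3, numpy 2.4.6 and matplotlib 3.10.9. The members and the gene lists were chosen with earlier results of these data known. Genes named were taken from the members, list genes past the threshold or among the 3 largest changes, the 5 genes most like each member among probes detected on at least 23 arrays, and the brightest marker of each cell type.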

Additional observations from a re-analysis of the deposited data

Results flagged for a closer look

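In each group of 4 arrays the gap between the most extreme array and its nearest neighbour was divided by the range of the group (Dixon's ratio). Of 63 such groups of member probes, 3 exceeded the 95% critical value, and chance gives about 1 in 20. STAT2 A_72_P344153 in control whole blood at 10 weeks had a ratio of 0.975, with replicate 1 at 9.94 and the next array at 9.63. STAT2 A_72_P119201 in the same group had a ratio of 0.853, with replicate 1 at 10.89 and the next at 10.65. IRF7 A_72_P065236 under HFCSD in whole blood at 10 weeks had a ratio of 0.865, with replicate 2 at 12.84 and the next at 12.004. The cause of these values was not tested.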

How the results depend on the processing

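The 7 probes kept the direction of their change and their side of the threshold under most alternatives, and the exceptions follow. The cause was not tested unless the alternative itself shows it. The table of intensities deposited by the authors left 142 of 143 member values as they were, and slide as a random block, fits of only 2 groups and a fit of all 45 arrays left every member value against control on its side. So did the stricter filter for the 52 values it tested of 54, without USP18 A_72_P417087 at 19 weeks. Signal over background limits USP18 A_72_P417087, which could not be tested in whole blood at 27 weeks against control.

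The rise of IRF7 A_72_P077861 under HFCSD in whole blood at 27 weeks stayed past the threshold with each scaling, and its adjusted p ranged from 0.0106 to 0.317 over the alternatives. With no filter on dim probes it was 2.14 at an adjusted p of 0.0798, as more probes were tested, and by the t-test 2.14 at 0.0874. With a covariate for each array's percentage of detected spots it was 0.88 at 0.317. In the same comparison 454, 142 and 0 of all probes were then called, against 1824. By the study's own rule, IRF7 A_72_P065236 passed under HFCD at 1.35 in whole blood at 27 weeks and at 1.41 in white blood cells, and IRF7 A_72_P077861 at 1.24 there, since that rule does not adjust. At 19 weeks the percentage covariate gave IRF7 A_72_P077861 under HFCD -0.63. Scan day as a block gave, under HFCD, -0.31 for IRF7 A_72_P077861 and -0.069 for USP18 A_72_P417087, and, under HFCSD, -0.093 for STAT2 A_72_P088106 and -0.15 for IRF7 A_72_P065236. There the 75th percentile gave IRF7 A_72_P065236 -0.0046. A fit of all 45 arrays called 525 probes under HFCD and 326 under HFCSD at 19 weeks, and 0 of 7 members. In white blood cells under HFCSD it called 79. In the 7 comparisons with control other than HFCSD whole blood at 27 weeks, limma called 2 to 7 probes, and the further alternatives 0 to 9, except the study's own rule with 22 to 885.

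Over time, normexp gave -0.021 for IRF7 A_72_P065236 from 10 to 19 weeks in HFCD, -0.0080 for STAT2 A_72_P119201 and -0.42 (not called) for USP18 A_72_P417087 in HFCSD, and -0.018 for STAT2 A_72_P119201 from 10 to 27 weeks in HFCD. The 75th percentile gave, from 10 to 27 weeks in controls, 0.062 for STAT2 A_72_P088106, 0.13 for STAT2 A_72_P119201, -0.55 (not called) for STAT2 A_72_P344153 and 0.099 for IRF7 A_72_P065236, and in HFCSD 0.056 for STAT2 A_72_P119201. The deposited table gave 0.00069 for IRF7 A_72_P065236 in controls.

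Between sample types the 75th percentile gave STAT2 A_72_P119201 0.022 in controls, 0.16 in HFCD and 0.096 in HFCSD, and STAT2 A_72_P088106 0.042 in HFCD. It brought past the threshold USP18 A_72_P077621 at 1.15 in controls and 1.21 in HFCD, and STAT2 A_72_P344153 at 0.89 in HFCD and 0.90 in HFCSD. Normexp gave STAT2 A_72_P344153 0.60 in controls, not called.

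Replicate numbers as a block pair arrays, and the labels do not say that a number is the same pig. Same-numbered arrays of different diets had a median r of -0.02, with 15 of 43 pairs above 0.1, and those within a diet 0.20, with 26 of 41 above 0.1. With that block STAT2 A_72_P344153 passed in controls from 10 to 19 weeks (-0.64), and USP18 A_72_P077621 passed between sample types in controls (0.84) and HFCD (1.02). STAT2 A_72_P088106 was -0.0080 from 10 to 19 weeks in HFCSD. No longer past were USP18 A_72_P417087 in HFCSD at 19 weeks (-1.88) and in HFCD at 27 weeks (-1.91), and IRF7 A_72_P077861 in HFCSD from 10 to 27 weeks (1.40).

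The percentage covariate was extended to the comparisons other than with control after seeing the data. For HFCSD against HFCD it gave IRF7 A_72_P077861 0.23 at 19 weeks, and at 27 weeks in whole blood -0.23 for that probe, 0.27 for STAT2 A_72_P344153 and 0.20 for IRF7 A_72_P065236. From 10 to 19 weeks it brought past the threshold STAT2 A_72_P344153 (-0.75) and IRF7 A_72_P077861 (1.07) in controls, and in HFCD it gave 0.071 for STAT2 A_72_P119201, 0.032 for STAT2 A_72_P344153 and -0.52 for IRF7 A_72_P077861. From 10 to 27 weeks it gave IRF7 A_72_P077861 0.37 in controls and STAT2 A_72_P119201 0.067 in HFCSD. No longer past were USP18 A_72_P417087 in HFCD (-1.76) and IRF7 A_72_P077861 in HFCSD (1.09). Between sample types IRF7 A_72_P077861 passed in HFCD (-0.92), and STAT2 A_72_P344153 in controls was no longer past (0.62). In HFCSD the calls of IRF7 A_72_P077861 (-0.92), USP18 A_72_P077621 (0.43) and USP18 A_72_P417087 (1.58) were lost, and IRF7 A_72_P065236 was -0.0092.

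Each array was left out in turn, and the lowest and highest values follow where a sign or call changed. Against control in whole blood at 10 weeks, IRF7 A_72_P077861 under HFCD ran from -0.056 (without HFCD replicate 2) to 0.55, and under HFCSD from -0.12 (without HFCSD replicate 2; also negative without 1) to 0.40, and USP18 A_72_P417087 from -0.069 (without HFCSD replicate 2) to 0.25. At 19 weeks IRF7 A_72_P077861 under HFCD ran from -0.19 (without control replicate 4; also negative without HFCD 2, 3 or 4) to 0.65. Under HFCSD IRF7 A_72_P065236 ran from -0.16 (without HFCSD replicate 2; also negative without control 4) to 0.59, IRF7 A_72_P077861 from -0.39 to 0.21 (without HFCSD replicate 2; also positive without control 1 or 2), and USP18 A_72_P417087 from -1.48 to 0.33 (without HFCSD replicate 3). At 27 weeks under HFCSD IRF7 A_72_P077861 ran from 1.95 to 2.53, not called without control replicate 1, 2 or 3 or HFCSD 1 or 2. In white blood cells under HFCSD STAT2 A_72_P119201 ran from -0.039 (without control replicate 4) to 0.47, and USP18 A_72_P417087 from -0.37 to 0.33 (positive without control replicate 1 or 3 or HFCSD 1 or 4).

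For HFCSD against HFCD, IRF7 A_72_P077861 at 10 weeks ran from -0.43 to 0.21 (positive without HFCD replicate 1 or 2 or HFCSD 3 or 4). At 19 weeks STAT2 A_72_P119201 ran from -0.26 to 0.029 (without HFCD replicate 1), STAT2 A_72_P344153 from -0.39 to 0.19 (without HFCSD replicate 3; also positive without HFCD 3), IRF7 A_72_P065236 from -0.72 to 0.032 (without HFCSD replicate 3) and IRF7 A_72_P077861 from -0.75 to 0.10 (without HFCSD replicate 2; also positive without HFCD 3).

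From 10 to 19 weeks IRF7 A_72_P065236 in HFCD ran from -0.21 to 0.32 (negative without replicate 2 or 4 of week 10 or 3 of week 19). In HFCSD STAT2 A_72_P088106 ran from -0.092 to 0.11 (negative without replicate 1 or 4 of week 10 or 2 of week 19), STAT2 A_72_P119201 from -0.092 to 0.13 (negative without 1 of week 10 or 2 of week 19), STAT2 A_72_P344153 from -0.38 to 0.21 (without 3 of week 19) and IRF7 A_72_P065236 from -0.11 (without 2 of week 19) to 0.64. USP18 A_72_P417087 ran from -2.50 to -0.70 (without 3 of week 19), not called without that array or any of week 10.

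From 10 to 27 weeks in controls STAT2 A_72_P088106 ran from -0.12 to 0.0012 (without replicate 4 of week 27), STAT2 A_72_P119201 from -0.10 to 0.12 (positive without 1 of week 10 or 4 of week 27), IRF7 A_72_P065236 from -0.19 to 0.31 (positive without 1 or 4 of week 10 or 4 of week 27), and STAT2 A_72_P344153 from -0.91 to -0.46, called only without 2 of week 27. In HFCD STAT2 A_72_P119201 ran from -0.074 to 0.14 (negative without 2 of week 10 or 3 of week 27) and USP18 A_72_P417087 from -2.16 to -1.47, called only without 2 of week 10. In HFCSD STAT2 A_72_P119201 ran from -0.11 to 0.061 (positive without 2 of week 10 or 1 of week 27) and IRF7 A_72_P077861 from 1.40 to 1.92, called only without 2 of week 10.

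Between sample types STAT2 A_72_P344153 in controls ran from 0.47 to 0.92, called only without replicate 2 of whole blood or 4 of white blood cells. USP18 A_72_P077621 ran from 0.52 to 1.15 in controls, called only without 1 of whole blood, and from 0.97 to 1.31 in HFCSD, not called without 1 or 3 of whole blood or 2, 3 or 4 of white blood cells. IRF7 A_72_P077861 in HFCD ran from -1.31 (called, without 1 of whole blood) to -0.27, and STAT2 A_72_P119201 in HFCSD from -0.41 to 0.053 (without 1 of white blood cells).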
